A study of Mus musculus with 23 samples.

Results

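Cells selected with puromycin at the end of a smooth muscle differentiation protocol were compared with undifferentiated cells of the same line, A404, which was cloned from P19, an embryonal carcinoma line of the mouse. The comparison used 12 of 23 arrays, chosen by the sample titles: 6 of the Puromycin group and 6 of the Control group. Puromycin cells had received 1 µmol/L all-trans retinoic acid for 96 h and then puromycin for 48 h, and the labels leave unsaid if retinoic acid stayed in the medium during selection. Control cells were grown almost to confluence and harvested at time 0 without retinoic acid or puromycin. Both groups are 1 clone, and each replicate was RNA of 5 to 6 plates. As background, resistance to puromycin in A404 is driven by an Acta2 promoter (Acta2 encodes alpha-actin of smooth muscle), so selection keeps cells in which that promoter is active, and the level of Acta2 is tied to the selection. Retinoic acid, culture time, cell density and selection all differ between the groups and cannot be told apart here.

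Smooth muscle cells contract through actin and smooth muscle myosin, and their contractile genes are controlled by serum response factor, which binds the CArG box, together with its cofactors. Embryonal carcinoma cells are malignant stem cells that divide fast and are kept undifferentiated by a network of transcription factors around Pou5f1, Sox2 and Nanog. Retinoic acid dissolves that network through nuclear receptors that act on genes such as Rarb and the Hox genes.

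Each array compared Cy5-labelled RNA of the cells with Cy3-labelled RNA pooled from whole mouse embryos of day 17.5. A level is the log2 ratio of cells over embryo pool, and a change is the level in Puromycin minus the level in Control, given ± SE. The deposited log ratios were taken to be in base 10, which no label states, and the folds rest on that reading. Levels of different genes are not comparable, since each is relative to that gene in the embryo. In both groups replicates 1 to 3 stood apart from replicates 4 to 6, and these array sets, which the labels do not name, were fitted as a block. Over rows, Puromycin arrays of the same set correlated at 0.951 to 0.976 (Pearson) and Control arrays at 0.898 to 0.951. Across sets the values were 0.810 to 0.842 for Puromycin and 0.750 to 0.825 for Control. Array medians lay between -0.077 and 0.020.

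Of 8683 measured genes 5755 (66.3%) passed an adjusted p of 0.05 in limma, 2585 of them higher (29.8%) and 3170 lower (36.5%) in Puromycin. These genes are called higher or lower below. The large rises outnumbered the large falls: 708 called genes (8.15%) were at least 2-fold higher and 375 (4.32%) at least 2-fold lower, and at 8-fold the counts were 76 (0.875%) and 13 (0.150%). Over all 17863 rows, which include probes without a gene of their own, 59.7% were called (25.1% higher, 34.6% lower). Over all genes the median change was -0.06. With group and set as a random block, which counts the 3 arrays of a group and set as repeats and holds no term for the shift between sets, 1890 genes were called (1064 higher, 826 lower). With so many genes called, each list below is read against these shares, and its count at 2-fold, its median or both stand beside the called count.

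The 4 genes that mark the start and the end of the protocol separated the groups on all arrays. Such separation was common: the groups did not overlap in 3060 of 8683 genes (35.2%), with 18.1% higher and 17.1% lower. Acta2 had a lowest, median and highest level of 2.13, 2.37 and 2.77 in Puromycin, against -5.91, -4.79 and -4.23 in Control. It rose by 7.30 ± 0.15, a 157-fold change (adjusted p = 8.43e-12). Anxa1, which encodes annexin A1, a calcium-dependent membrane-binding protein, had 2.53, 3.22 and 3.34 in Puromycin and -4.36, -3.96 and -3.44 in Control, a rise of 6.96 ± 0.11. These were the largest rises among all called genes that met the naming rule. Thbs1, which encodes thrombospondin 1, a matricellular protein that activates latent TGF-beta, had 2.62, 3.08 and 3.56 in Puromycin and -2.47, -2.07 and -1.91 in Control, a rise of 5.17 ± 0.13. Sox2, the pluripotency factor, had -1.18, -0.62 and 0.10 in Puromycin, against 4.12, 4.40 and 8.18 in Control. It fell by 5.70 ± 0.49 (adjusted p = 1.24e-06). The value of 8.18 was on Control replicate 5 and the other 5 Control arrays lay at 4.12 to 5.22. Without that array Sox2 fell by 5.16 (adjusted p = 8.40e-10).

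**Figure D1:**
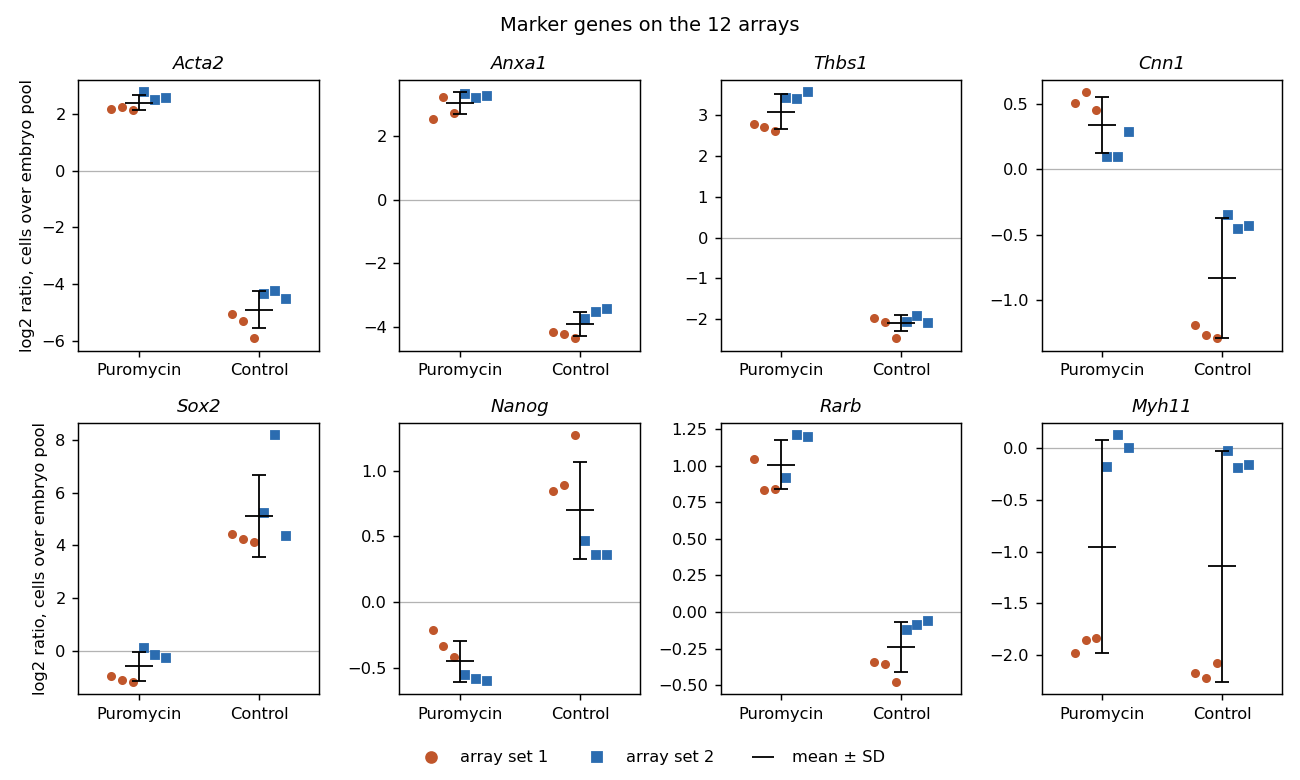
Level (log2 ratio of cells over embryo pool) of 8 genes on each of the 6 Puromycin and 6 Control arrays, with points shaped by array set and bars for mean ± SD. The groups do not overlap for Acta2, Anxa1, Thbs1, Cnn1, Sox2, Nanog and Rarb, while for Myh11 the sets lie further apart than the groups. Of all 8683 genes 35.2% show no overlap.

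Contractile genes of smooth muscle rose as a group. Of 18 measured genes 15 were called higher and 0 lower (11 and 0 with the random block), 10 at least 2-fold, and the median change was 1.11. After Acta2 the largest rises were those of Myl9, a regulatory light chain of smooth muscle myosin (4.56 ± 0.14, 23.7-fold), Actg2, the enteric smooth muscle gamma-actin (3.25 ± 0.16), and Cald1, which encodes caldesmon, an actin-binding regulator of contraction (3.08 ± 0.10). Csrp1, a LIM-domain protein of actin bundles, rose by 2.43 ± 0.14 and Smtn, which encodes smoothelin, by 1.05 ± 0.11. Markers of the late contractile state had smaller changes. Cnn1, the smooth muscle calponin gene, had 0.09, 0.37 and 0.59 in Puromycin and -1.29, -0.82 and -0.35 in Control. It rose by 1.17 ± 0.18 (adjusted p = 1.77e-04), by 1.77 in set 1 and 0.57 in set 2, and this difference between sets passed its own test (interaction adjusted p = 1.65e-04). Myh11, which encodes smooth muscle myosin heavy chain, the most restricted of these markers, had -1.98, -1.01 and 0.13 in Puromycin and -2.22, -1.14 and -0.03 in Control. Its rise of 0.19 ± 0.07 was just past the threshold (adjusted p = 0.0368) and the groups overlapped. Leaving out any 1 of 8 arrays (Control replicates 1, 2, 5 and 6, Puromycin replicates 2, 3, 5 and 6) ended that call, with adjusted p from 0.0550 to 0.0839, as did the replicate number as a block (0.103) and the random block (0.877). Mylk, the kinase that phosphorylates myosin light chain, was not called at a change of 0.17, with 0.29 as adjusted p. In set 2 alone it was called higher (0.55, adjusted p = 0.0012). Tagln, another early smooth muscle marker, was not assessed.

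The actin cytoskeleton around this apparatus showed the highest median of the functional lists, 1.40. Of 36 measured genes 30 were called higher and 0 lower (26 and 0 with the random block), 24 of them at least 2-fold. Tmsb4x, the thymosin that holds actin monomers, rose by 3.43 ± 0.15, Capn2, a calcium-dependent protease of adhesion turnover, by 3.33 ± 0.12, and Gsn, the filament-severing gelsolin, by 2.87 ± 0.28. Actg1, the cytoplasmic gamma-actin, was not called (0.12). Among 27 integrin and focal adhesion genes 17 were called higher and 6 lower (11 and 2 at 2-fold, 13 and 3 with the random block), and the subunits differed. Cav1, the caveolar coat protein (3.89 ± 0.20), Lpp, a zyxin relative abundant in smooth muscle (3.69 ± 0.09), and Itgb1, the common beta1 integrin chain (3.15 ± 0.09), rose. Itga6, a laminin receptor chain of stem cells and epithelia, fell by 1.05 ± 0.14, and Itgb5 and Itga2 by 1.01 ± 0.16 and 0.69 ± 0.12, Itga2 without a call under the random block (adjusted p = 0.0878). Of 15 intermediate filament genes 8 were called higher and 3 lower (4 and 0 at 2-fold, 4 and 1 with the random block). The risers were led by Vim, the mesenchymal filament vimentin (3.43 ± 0.14), and the simple-epithelial keratins Krt8 and Krt18 described below. The nuclear lamins Lmnb2 (-0.72 ± 0.06) and Lmnb1 (-0.58 ± 0.09) were called lower, Lmnb1 not with the random block (adjusted p = 0.366).

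The CArG box was looked for in the promoters of contractile and actin genes, as CC, then 6 letters that are each A or T, then GG. It reads the same on both strands. Windows were those of RefSeq (GRCm38.p6), 250 bases before to 50 bases after an annotated transcript start. Positions are those of the first base of the box, with the transcript start as 0. Of 16 contractile genes with a window 2 held a box, Myl9 and Myl6, and of 35 actin genes 5 did, Cnn2, Vcl, Lima1, Rnd3 and Actg1. The share was 1.63% over all 32851 windows, 1.61% over the measured genes, 3.55% (20 of 564) among genes called at least 2-fold higher and 2.30% (7 of 305) among those at least 2-fold lower. The promoters of Myl9 (chr2:156775214-156775513, + strand, box at -161), Cnn2, which encodes a calponin of non-muscle and smooth muscle cells (chr10:79988350-79988649, + strand, box at -56), and Vcl, the adhesion protein vinculin (chr14:20929148-20929447, + strand, box at -227), are shown because these genes rose and hold the box. Capitals mark it.
Myl9: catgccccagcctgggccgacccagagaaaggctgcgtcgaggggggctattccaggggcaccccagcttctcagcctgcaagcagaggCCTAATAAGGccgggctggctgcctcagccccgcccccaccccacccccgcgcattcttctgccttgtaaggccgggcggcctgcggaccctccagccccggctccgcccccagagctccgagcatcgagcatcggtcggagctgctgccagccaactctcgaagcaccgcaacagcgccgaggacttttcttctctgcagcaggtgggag
Cnn2: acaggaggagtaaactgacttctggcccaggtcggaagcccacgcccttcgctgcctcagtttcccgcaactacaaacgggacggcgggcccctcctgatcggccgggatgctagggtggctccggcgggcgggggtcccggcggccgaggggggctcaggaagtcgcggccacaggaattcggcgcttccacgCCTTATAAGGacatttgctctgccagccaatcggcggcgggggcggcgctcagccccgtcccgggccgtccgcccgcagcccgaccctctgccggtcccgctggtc
Vcl: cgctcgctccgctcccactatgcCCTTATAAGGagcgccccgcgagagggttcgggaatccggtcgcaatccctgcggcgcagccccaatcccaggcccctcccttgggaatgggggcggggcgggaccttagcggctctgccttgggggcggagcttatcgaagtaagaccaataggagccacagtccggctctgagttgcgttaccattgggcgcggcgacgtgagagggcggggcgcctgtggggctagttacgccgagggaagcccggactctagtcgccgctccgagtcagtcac
The window of Acta2 (chr19:34255324-34255623, - strand) holds no exact box. It holds a pair of 10-letter stretches in which 5 of the 6 inner letters are A or T, CCCTATATGG at -84 and CCTTGTTTGG at -34, given in capitals and shown because Acta2 rose most. As background, the Acta2 promoter is known for CArG elements with such an inner G or C.
Acta2: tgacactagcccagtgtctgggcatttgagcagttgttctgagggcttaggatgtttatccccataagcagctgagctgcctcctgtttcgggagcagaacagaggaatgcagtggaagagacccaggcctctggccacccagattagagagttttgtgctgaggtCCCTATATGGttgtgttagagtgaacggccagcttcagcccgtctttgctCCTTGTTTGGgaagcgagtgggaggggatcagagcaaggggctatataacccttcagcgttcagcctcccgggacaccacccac
At least 1 such stretch lay in 8.50% of all windows and at least 2 lay in 0.679%. Cnn2 rose by 2.85 and Vcl by 1.54, whereas Actg1, also with a box, was not called. A match of letters is a description and does not show that a factor binds there. Thbs1 was not part of this search.

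**Figure D2:**
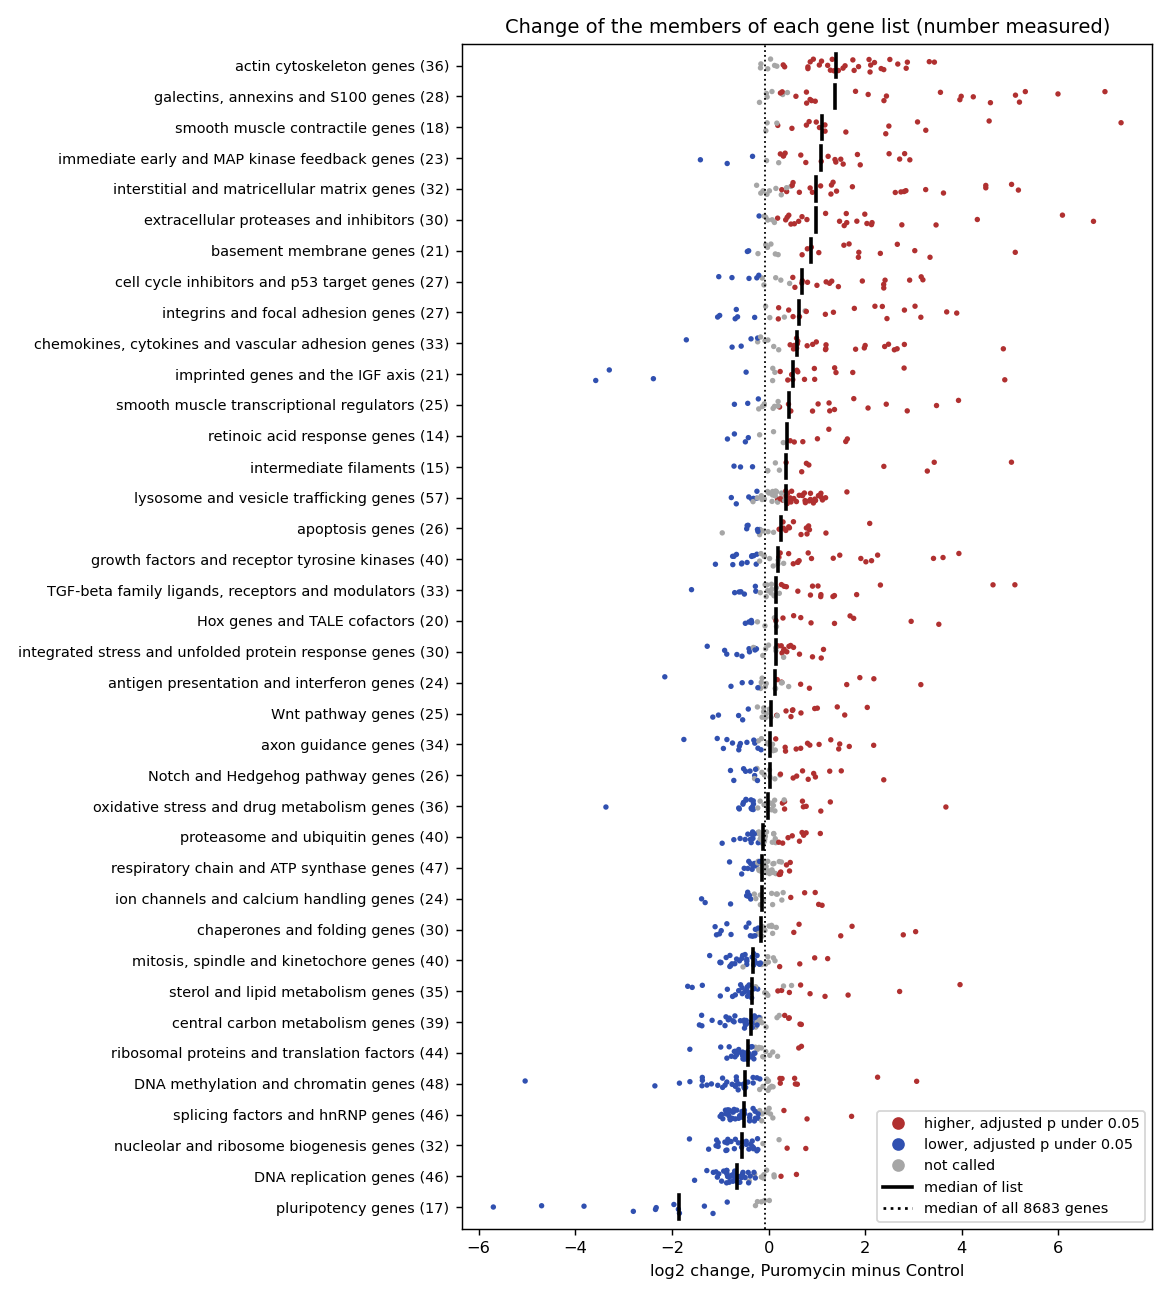
Change (log2, Puromycin minus Control) of each measured member of the functional gene lists, ordered by list median, with black bars for list medians and a dotted line for the median of all genes at -0.06. Lists of the cytoskeleton, matrix and cell surface lie to the right, and pluripotency, DNA replication and ribosome biogenesis to the left.

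Among 25 transcriptional regulators linked to smooth muscle 14 were called higher and 3 lower (10 and 0 at 2-fold, 11 and 1 with the random block). Fhl1, a LIM-only protein (3.93 ± 0.08), Tgfb1i1, the TGF-beta-induced cofactor Hic-5 (3.48 ± 0.16), Klf4, a factor of both pluripotent cells and injured vessels (2.87 ± 0.18), and Gata6, a factor of vascular smooth muscle and endoderm (2.44 ± 0.13), rose most. The 3 probes of Gata6 ranged from 1.07 to 3.99. Hey2, a Notch target, rose by 1.27 ± 0.16. The general factor Sp1 and Hand1, a factor of heart and extraembryonic mesoderm, were called lower, with changes of -0.71 and -0.43, Hand1 not with the random block (adjusted p = 0.314). Srf itself was called higher at 0.23 (0.040 and not called for 1 of its 2 probes, adjusted p = 0.413 for the gene with the random block), and its cofactor Mrtfa (0.20) was not called. Myocd, the smooth muscle coactivator, was not assessed.

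Pluripotency genes fell. Of 17 measured genes 12 were called lower and 0 higher, 11 of them at least 2-fold, and all 12 were also called with the random block. The median change was -1.85. Pim2, a survival kinase (-4.70 ± 0.12), and Utf1, which binds chromatin in pluripotent cells (-3.82 ± 0.14), followed Sox2. Dnmt3l, a cofactor of de novo methylation, also fell (-1.85 ± 0.20). Nanog had -0.60, -0.49 and -0.21 in Puromycin and 0.36, 0.65 and 1.27 in Control, a fall of 1.15 ± 0.09. Zfp42, the stem cell marker also called Rex1, was not called (-0.09 ± 0.24), and its levels were 1.10 ± 0.25 in Puromycin and 1.19 ± 0.59 in Control (SD, n = 6 each). Klf4, given above with the smooth muscle regulators, was not on the pluripotency list and rose by 2.87 ± 0.18. Pou5f1 was not assessed. Other large falls were those of Trh, the thyrotropin-releasing hormone gene (-5.53 ± 0.30), Gpr37, an orphan receptor of the brain (-3.60 ± 0.13), Prex2, a Rac activator (-3.54 ± 0.38), Abcc4, an export pump for cyclic nucleotides and drugs (-3.42 ± 0.07), Gsta4, a glutathione transferase (-3.37 ± 0.10), and Car2, a carbonic anhydrase (-3.14 ± 0.09). Prex2 had 1 high Control array at 5.89, with the others at 3.27 to 3.64.

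Chromatin and DNA methylation genes were mostly lower: of 48 measured 31 were called lower and 8 higher, 10 and 2 at 2-fold, and 17 and 4 with the random block. Dnmt3b, a methyltransferase that sets new methylation in the embryo, had 0.03, 0.21 and 0.33 in Puromycin and 4.70, 5.30 and 5.60 in Control, a fall of 5.04 ± 0.10. Cbx7, a Polycomb subunit of stem cells, fell by 2.35 ± 0.07. Against this direction Mbd2, a reader of methylated DNA (3.06 ± 0.11), and Hmga2, an architectural protein of fetal cells (2.26 ± 0.14), rose.

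**Figure D3:**
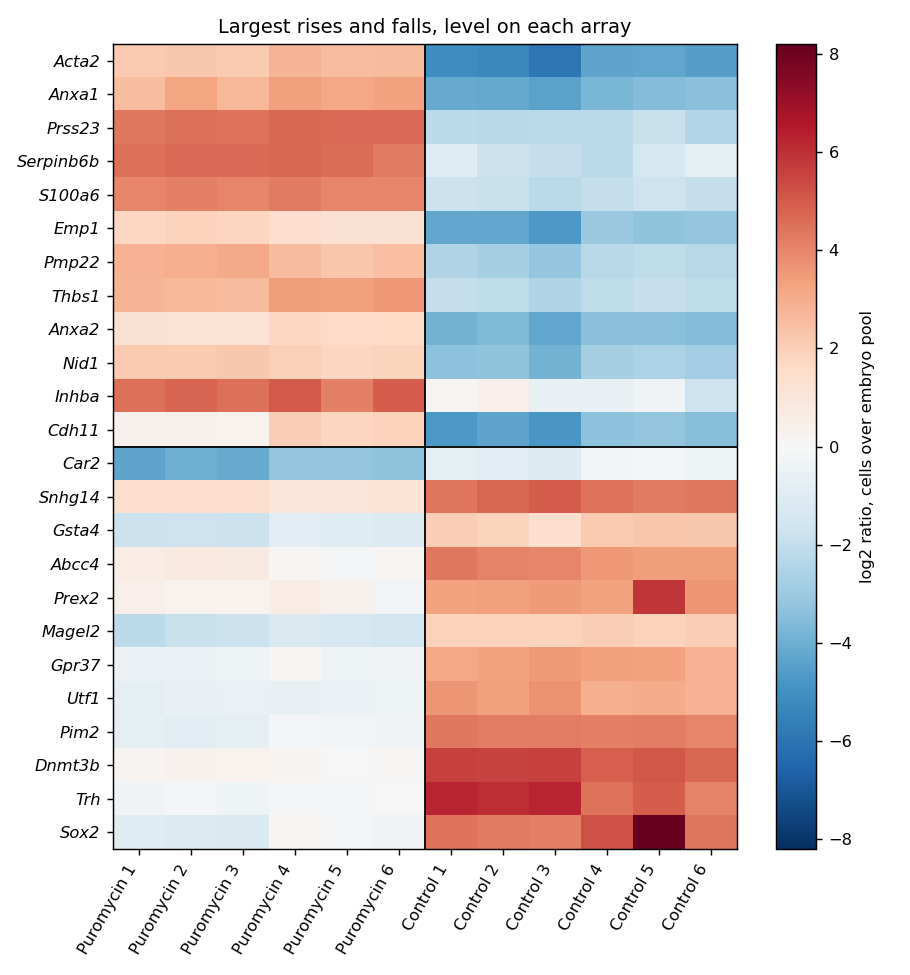
Level (log2 ratio of cells over embryo pool, colour) of the 12 genes with the largest rises and the 12 with the largest falls on the 6 Puromycin and 6 Control arrays. All 24 genes separate the groups, which the rule that chose them required, and Sox2 and Prex2 have their highest level on Control replicate 5.

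Of 32 interstitial and matricellular matrix genes 23 were called higher and 0 lower (13 and 0 with the random block), 16 at least 2-fold, with a median of 0.99. After Thbs1 stood Ccn2, connective tissue growth factor (5.03 ± 0.13), and Postn, which encodes periostin (4.50 ± 0.15). Col3a1, the main reticular collagen of arteries, was not called (-0.16 ± 0.10), nor was Eln (0.02), which encodes elastin. In set 1 alone Col3a1 was called lower (-0.42, adjusted p = 0.0108). Of 21 basement membrane genes 13 were called higher and 2 lower (10 and 0 at 2-fold, 11 and 0 with the random block), with a median of 0.88. Nid1, the laminin-collagen linker nidogen 1 (5.11 ± 0.20), and Col4a2 and Col4a1, the chains of the ubiquitous type IV collagen (3.34 ± 0.11 and 3.03 ± 0.11), rose, while Col18a1 (-0.44 ± 0.09) and Col4a4 (-0.41 ± 0.07) were called lower, neither of them with the random block (adjusted p = 0.165 and 0.206). Among 30 extracellular proteases and inhibitors 24 were called higher and 1 lower (15 and 0 at 2-fold, 15 and 0 with the random block). Prss23, a secreted serine protease, rose by 6.72 ± 0.09 (106-fold), Serpinb6b, an intracellular serpin, by 6.08 ± 0.22, and Adamts5, an aggrecanase, by 4.32 ± 0.20.

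Galectins, annexins, S100 proteins and tetraspan membrane proteins gave 22 higher and 0 lower of 28 (16 and 0 with the random block), 14 at least 2-fold, with a median of 1.38. S100a6, a calcium-binding partner of annexins, rose by 5.99 ± 0.09, Emp1, an epithelial membrane protein, by 5.31 ± 0.26, Pmp22, its relative from myelin, by 5.19 ± 0.19, and Anxa2 by 5.11 ± 0.09. Emp1 rose more in set 1 (6.18) than in set 2 (4.45; interaction adjusted p = 2.34e-04). Cdh11, the mesenchymal cadherin, rose by 5.07 ± 0.09.

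Signalling genes moved both ways. In the TGF-beta family 15 of 33 were called higher and 7 lower, 9 and 1 at 2-fold and 11 and 2 with the random block. The ligands stood out: Inhba, the subunit of activin A, had 4.11, 4.66 and 5.03 in Puromycin and -1.70, -0.42 and 0.43 in Control, a rise of 5.10 ± 0.29, and Tgfb2 rose by 4.64 ± 0.13 (25.0-fold). Ltbp1, which stores latent TGF-beta in the matrix, rose by 2.31 ± 0.08. A receptor, Acvr2b, fell by 1.60 ± 0.08, and the inhibitor Skil and the co-receptor Eng were called lower (-0.70 and -0.61), Eng not with the random block (adjusted p = 0.162). Of 40 growth factors and receptor tyrosine kinases 18 were called higher and 13 lower (9 and 1 at 2-fold, 11 and 0 with the random block). Hbegf, an EGF receptor ligand (3.94 ± 0.06), Axl, a receptor kinase of migrating and phagocytic cells (3.61 ± 0.11), and Pdgfc (3.41 ± 0.10) rose. Flt4, the receptor of lymphatic growth factors (-1.10 ± 0.20), Kit, the stem cell factor receptor (-0.74 ± 0.10), and Vegfb (-0.74 ± 0.10) were called lower, but none of these 3 with the random block (adjusted p = 0.376, 0.0779 and 0.0835). Immediate early and MAP kinase feedback genes gave 18 higher and 3 lower of 23 (12 and 1 at 2-fold, 12 and 2 with the random block), with a median of 1.09. They included Ier3 (2.92 ± 0.21), the AP-1 subunit Fosl2 (2.82 ± 0.09) and Phlda1 (2.71 ± 0.08), while Sgk1, a serum-induced kinase, fell by 1.41 ± 0.08 and Spry4, a feedback inhibitor of growth factor signalling, by 0.86 ± 0.09. Within the sets that list's median was 1.08 and 0.60.

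Retinoic acid response genes were a mixed list at the end point: of 14 measured 7 were called higher and 4 lower, 4 and 0 at 2-fold, and 4 and 1 with the random block. Rarb had 0.83, 0.98 and 1.21 in Puromycin and -0.47, -0.23 and -0.06 in Control, a rise of 1.25 ± 0.07. The orphan receptors Nr2f2 (1.63 ± 0.10) and Nr2f1 (1.60 ± 0.10) rose, and Ncoa3, a nuclear receptor coactivator (-0.85 ± 0.08), Stra6, the retinol transporter (-0.71 ± 0.09), and the receptor Rxrg (-0.48 ± 0.07) were called lower. Ncoa3 and Rxrg were not called with the random block (adjusted p = 0.0520 and 0.0776). Among 20 Hox genes and cofactors 10 were called higher and 5 lower (5 and 0 at 2-fold, also 5 and 0 with the random block). Hoxa5 rose by 3.52 ± 0.16, more in set 1 (4.01) than in set 2 (3.03; interaction adjusted p = 9.04e-04), the cofactor Meis1 by 2.95 ± 0.12 and Hoxb9 by 1.76 ± 0.13. Hoxb4 (-0.48) and the cofactor Pbx2 (-0.41) were called lower, neither with the random block (adjusted p = 0.253 and 0.218). Wnt (11 higher and 5 lower of 25) and Notch and Hedgehog genes (10 and 8 of 26) had medians of 0.05 and 0.02. With the random block Wnt genes gave 6 and 2, and Notch and Hedgehog genes 6 and 1. Ror1, a Wnt receptor kinase (2.04 ± 0.20), and Gas1, a Hedgehog co-receptor that also arrests growth (2.38 ± 0.16), led the risers. The factors Tcf7l2 (-1.15 ± 0.26, though -0.023 for 1 of its 2 probes) and Tcf7l1 (-1.04 ± 0.13) and the Hedgehog receptor Ptch1 (-0.79 ± 0.10) were called lower, Tcf7l2 and Ptch1 not with the random block (adjusted p = 0.0960 and 0.140).

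**Figure D4:**
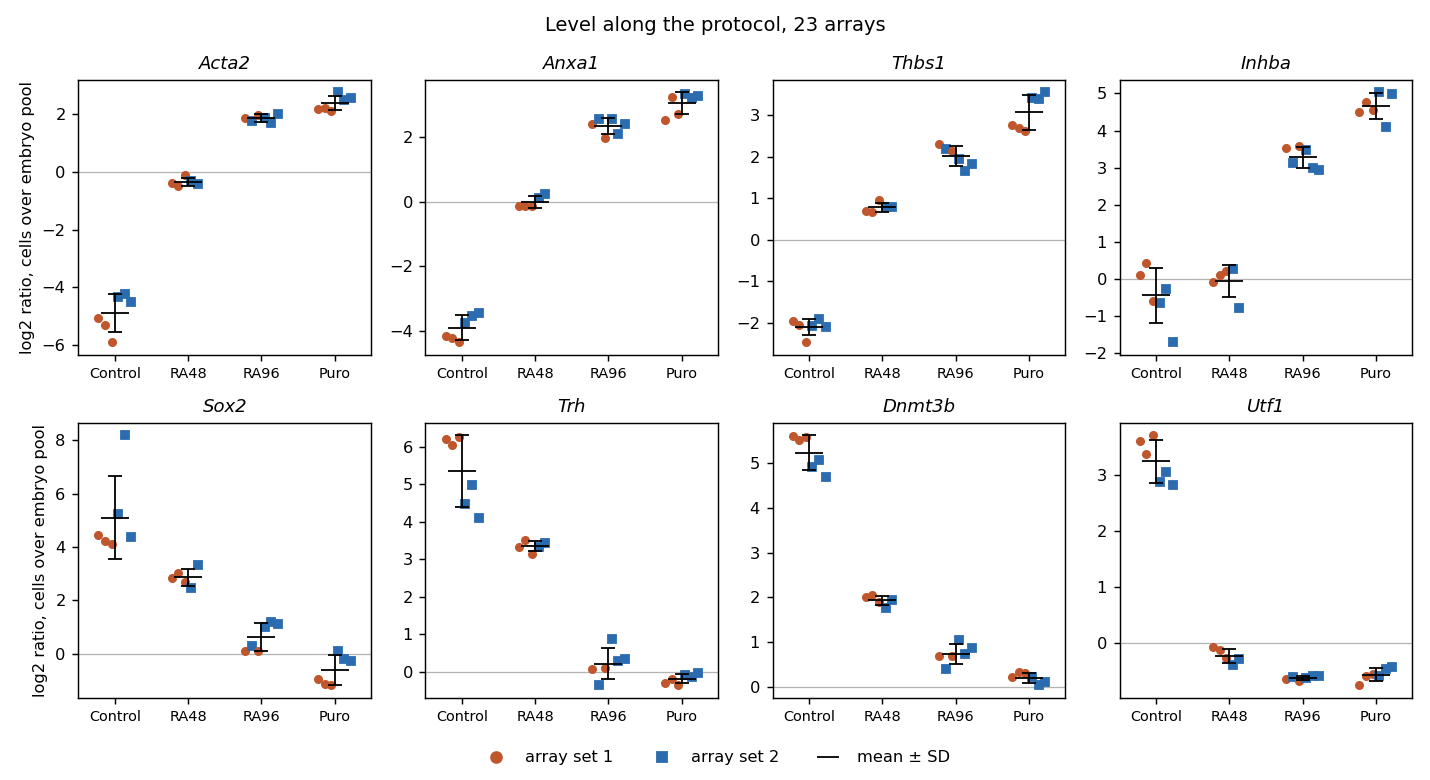
Level (log2 ratio of cells over embryo pool) of 4 genes with large rises (top) and 4 with large falls (bottom) on all 23 arrays, in the order of the protocol from Control through RA48 and RA96 to Puromycin, with points shaped by array set and bars for mean ± SD. The 8 genes lie between their Control and Puromycin levels in RA48, except Inhba, which is near Control in RA48, and Utf1, which is near its Puromycin level from RA48 on.

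The 11 arrays of cells after 48 h (RA48, n = 5) and 96 h (RA96, n = 6) of retinoic acid show how far the end point differs from the step before it. Means of the set means are given in the order Control, RA48, RA96 and Puromycin. The sets of RA96 were replicates 1 and 3 (set 1) and replicates 2, 4, 5 and 6 (set 2). Those of RA48 were replicates 1 to 3 and replicates 4 and 5, so some set means rest on 2 arrays. Acta2 had -4.90, -0.34, 1.89 and 2.40, and Inhba had -0.44, -0.09, 3.35 and 4.65. Utf1 had 3.25, -0.26, -0.64 and -0.57. Of 708 called genes at least 2-fold higher 53 had their highest mean in RA48 and 186 in RA96, before the end point. Examples are 3 genes: Rarb had -0.24, 2.69, 2.70 and 1.01, Hoxa5 had -1.36, 3.01, 3.86 and 2.16, and Krt8 had -2.01, 3.05, 3.57 and 3.01. These are levels without a test.

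Genes of cell division were lower in the selected cells and their inhibitors higher. Of 46 DNA replication genes 36 were called lower and 2 higher (22 and 0 with the random block), and the median was -0.66, but only 6 fell at least 2-fold. Orc5, an origin recognition subunit, fell by 1.53 ± 0.50, of which a large part rested on Control replicate 5 (5.44, with the other Control arrays at 1.45 to 2.37). Without that array Orc5 fell by 0.97, and with the random block it was not called (adjusted p = 0.467). Ung and Dut, which keep uracil out of DNA, fell by 1.28 ± 0.12 and 1.14 ± 0.06. Rrm2, a ribonucleotide reductase subunit (0.58 ± 0.08), and Pola2 (0.26 ± 0.08) were the 2 called higher, neither with the random block (adjusted p = 0.0773 and 0.484). Of 40 mitosis genes 28 were called lower and 4 higher (3 and 1 at 2-fold, 10 and 3 with the random block), with a median of -0.32. Bub1b, a spindle checkpoint kinase (-1.22 ± 0.07), Cenpa, the centromeric histone (-1.01 ± 0.07), and Kif11, the spindle motor (-1.001 ± 0.058), fell, and Anln, the anillin of the contractile ring (1.22 ± 0.08), rose. Among 27 cell cycle inhibitors and p53 targets 17 were called higher and 5 lower (12 and 1 at 2-fold, 15 and 1 with the random block), with a median of 0.70. Cdkn2b and Cdkn1a, which encode the inhibitors p15 and p21, rose by 3.19 ± 0.10 and 3.16 ± 0.08, and the death receptor Fas by 2.92 ± 0.12. Sesn1 (-1.03 ± 0.08), Pmaip1 (-0.76 ± 0.17) and Sesn2 (-0.41 ± 0.08), also p53 targets, were called lower, Pmaip1 and Sesn2 not with the random block (adjusted p = 0.0983 and 0.354). Apoptosis genes (14 higher and 6 lower of 26, 2 and 0 at 2-fold) were led by Casp1, the inflammatory caspase (2.09 ± 0.35). With the random block 1 was called higher and 0 lower, and Casp1 was not called (adjusted p = 0.174).

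Of 32 nucleolar and ribosome biogenesis genes 28 were called lower and 2 higher (11 and 1 with the random block), 6 and 0 at 2-fold, with a median of -0.55. Mycn, the MYC family factor of embryonic cells, fell by 1.64 ± 0.10, while Myc was called higher (0.77 ± 0.08). Ribosomal protein and translation genes gave 32 lower and 2 higher of 44 with a median of -0.43, but 1 fell at least 2-fold, and 3 lower and 2 higher were called with the random block. That 1 gene was Eef2, the elongation factor (-1.63 ± 0.33, adjusted p = 0.344 with the random block), whose level followed the array set: -4.87 to -4.59 in set 1 and -0.64 to -0.57 in set 2 of Puromycin, against -2.74 to -1.35 and 0.03 to 0.13 in Control. Splicing factor and hnRNP genes gave 35 lower and 3 higher of 46 (8 and 2 with the random block) and a median of -0.51. Mbnl1, which switches splicing to adult muscle patterns, was the 1 at least 2-fold higher (1.72 ± 0.12, with its 2 probes at 0.91 and 2.52). Central carbon metabolism gave 26 lower and 5 higher of 39 (5 and 0 at 2-fold, 10 and 2 with the random block), with Got1 (-1.43 ± 0.09), the lactate exporter Slc16a3 (-1.39 ± 0.09) and Pfkm (-1.38 ± 0.11) falling most. In sterol and lipid metabolism 20 of 35 were called lower and 9 higher, 3 and 4 at 2-fold and 6 and 4 with the random block. Elovl6, a fatty acid elongase (-1.67 ± 0.09), and Dhcr7, an enzyme of cholesterol synthesis (-1.37 ± 0.13), fell, while the cholesterol exporter Abca1 (3.96 ± 0.20), the lipid droplet coat gene Plin2 (2.71 ± 0.22) and the adipogenic receptor Pparg (1.65 ± 0.27, adjusted p = 0.110 with the random block) rose. Of 30 chaperone and folding genes 6 were called higher and 13 lower (4 and 3 at 2-fold, 4 and 5 with the random block). The small heat shock genes Cryab (3.04 ± 0.27), Hspb1 (2.79 ± 0.19) and Hspb8 (1.73 ± 0.08) were higher. The Hsp90 partners Stip1 (-1.11 ± 0.14, adjusted p = 0.0594 with the random block) and Ahsa1 (-1.02 ± 0.07) were lower. Respiratory chain genes (7 higher and 14 lower of 47, none at 2-fold) and proteasome genes (9 and 14 of 40) had medians of -0.13 and -0.11. With the random block they gave 0 higher and 1 lower, and 5 higher and 2 lower. Lysosome and trafficking genes gave 32 higher and 7 lower of 57 (14 and 0 with the random block), with a median of 0.36 and Lamp2, a lysosomal membrane protein, rising most (1.62 ± 0.06).

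Of 33 chemokine, cytokine and vascular adhesion genes 22 were called higher and 5 lower (12 and 1 at 2-fold, 12 and 1 with the random block), with a median of 0.60. Ptgs2, the inducible cyclooxygenase, had 3.83, 5.43 and 6.57 in Puromycin and -0.83, 0.55 and 1.10 in Control, a rise of 4.86 ± 0.34, by 5.74 in set 1 and 3.98 in set 2. Osmr, the oncostatin M receptor (2.81 ± 0.29), and Ccl2, the monocyte chemokine (2.66 ± 0.15), rose, and Ptgis, the prostacyclin synthase of vessel walls, fell by 1.70 ± 0.31, without a call under the random block (adjusted p = 0.144). B2m, the light chain of MHC class I, rose by 3.15 ± 0.07 and Bst2, an interferon-induced tetherin, fell by 2.15 ± 0.10. Their list, of antigen presentation and interferon genes, had 8 higher and 5 lower of 24 (4 and 1 at 2-fold, 5 and 1 with the random block). Of 21 imprinted and IGF axis genes 14 were called higher and 4 lower (5 and 3 at 2-fold, 6 and 3 with the random block). Igf2, the fetal growth factor, had -0.35, 0.24 and 0.84 in Puromycin and -5.87, -4.56 and -3.66 in Control, a rise of 4.89 ± 0.14. The paternally expressed genes Magel2 (-3.58 ± 0.11) and Snhg14 (-3.30 ± 0.09), neighbours in the Prader-Willi region, and Igfbp2, an IGF binding protein (-2.38 ± 0.09), fell.

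Stress, channel and guidance lists stayed near the median of all genes. The integrated stress and unfolded protein list gave 13 higher and 10 lower of 30 (median 0.15), with Psat1 and Asns of amino acid synthesis falling (-1.27 ± 0.09 and -0.91 ± 0.09) and the endoplasmic reticulum factor Xbp1 rising (1.14 ± 0.10). Ion channel and calcium genes gave 5 higher and 8 lower of 24 (median -0.14), with Gja1, the connexin 43 gene, falling by 1.39 ± 0.07. Axon guidance genes gave 13 each way of 34 (median 0.03), with Nrp1, a receptor of semaphorins and VEGF, rising by 2.17 ± 0.08 and Sema4d falling by 1.75 ± 0.08. Oxidative stress and drug metabolism genes gave 9 higher and 14 lower of 36 (median -0.01), with Cyp1b1, an oxidase that also acts on retinoids, rising by 3.67 ± 0.09. With the random block the higher and lower counts were 3 and 3 for the stress list, 4 and 3 for channels, 6 and 3 for guidance and 5 and 1 for oxidative stress, so the side with more calls turned for channels and oxidative stress.

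Markers of other cell types were examined because retinoic acid can lead these cells to several fates, and because in bulk RNA fewer cells of a type and less RNA per cell cannot be told apart. The mean level per array over 9 measured markers of smooth muscle and differentiated cells was 1.10 to 1.86 in Puromycin. In Control it was -2.61 to -1.62. The set includes Acta2, which is tied to the selection, and Anxa1 and Thbs1, which are not on the contractile list. Acta2, Anxa1 and Thbs1 rose most of the set, by 7.30, 6.96 and 5.17. Over 5 embryonal carcinoma markers the mean was -0.42 to 0.02 in Puromycin and 2.56 to 3.19 in Control. Simple epithelial keratins rose with the smooth muscle genes. Krt8 had 2.56, 3.08 and 3.37 in Puromycin and -2.44, -1.94 and -1.86 in Control, a rise of 5.03 ± 0.15, and Krt18 rose by 3.28 ± 0.23 (4.01 in set 1 and 2.56 in set 2, interaction adjusted p = 8.90e-04). Of 27 epithelial junction genes, keratins included, 11 were called higher and 8 lower (5 and 1 at 2-fold, 7 and 4 with the random block). Perp, a desmosome protein, rose by 2.41 ± 0.23, and Krt19 was called higher (0.83 ± 0.15, adjusted p = 0.183 with the random block). Epcam, an epithelial surface protein, fell by 2.60 ± 0.16, Spint1, a protease inhibitor of epithelia, by 0.80 ± 0.11, and Cdh1, E-cadherin, by 0.78 ± 0.09. Over 5 epithelial markers the mean level per array was -0.26 to -0.10 in Puromycin and -1.61 to -1.19 in Control, and their part in the other results was not tested.

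Endothelial genes gave 7 higher and 4 lower of 13 (2 and 0 at 2-fold, 3 and 1 with the random block). Flt1 (1.34 ± 0.07) and Sox17 (1.24 ± 0.14), which is also on the endoderm list, rose most. Both were also called with the random block (adjusted p = 4.06e-04 and 0.00301). Pecam1 and Cdh5, the defining junction genes of endothelium, were called higher by 0.78 ± 0.16 and 0.70 ± 0.12, at levels of -1.06 ± 0.07 and -2.11 ± 0.17 in Puromycin and -1.84 ± 0.46 and -2.81 ± 0.53 in Control, below the embryo pool in both. Neither was called with the random block (adjusted p = 0.164 and 0.147), Pecam1 was not called in set 2 alone (0.0637), and Cdh5 was at 0.24 under quantile normalization (0.0974). Heart and skeletal muscle genes gave 12 higher and 4 lower of 25 (4 and 0 at 2-fold, 4 and 0 with the random block), led by Nppb, a natriuretic peptide (2.26 ± 0.17), Myl2 (1.82 ± 0.30) and Myl7 (1.31 ± 0.09). The sarcomeric actin Actc1 (0.65 ± 0.13) and Tnnt2 (0.34 ± 0.08) were called higher, the second with 0.0017 for 1 of its 2 probes, Myh7 (-0.63 ± 0.12) and Myod1 (-0.27 ± 0.09) lower, and Myog was not called (0.01 ± 0.15). With the random block Myl2, Actc1, Tnnt2, Myh7 and Myod1 were not called (adjusted p = 0.0960, 0.436, 0.366, 0.0504 and 0.629). The call of Myod1 also ended without Control replicate 4 or Puromycin replicate 6 (adjusted p of 0.0543 and 0.0555). The mean over 5 heart and muscle markers was -1.33 to -0.70 per array in Puromycin and -1.45 to -0.78 in Control.

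Neuron and glia genes gave 4 higher and 6 lower of 17 (2 and 1 at 2-fold, also 2 and 1 with the random block). Pmp22, given above with the tetraspan proteins, is on this list too and rose most (5.19). Map2 was called higher (0.36 ± 0.14), a call that leaving out any of 9 arrays ended (adjusted p from 0.0509 to 0.0831; Control replicates 2 and 5 and Puromycin replicate 2 were the exceptions). Stmn2 was called lower (-0.43 ± 0.09), neither gene with the random block (adjusted p = 0.641 for Map2 and 0.0957 for Stmn2), and Dcx (-0.16, with its 2 probes at -0.51 and 0.20) and Snap25 (-0.06) were not called. Stmn1, a microtubule regulator of dividing and neuronal cells, fell by 2.92 ± 0.10, and Gap43, of growing axons, rose by 2.15 ± 0.10. Neural patterning genes gave 5 each way of 14 (1 higher and 2 lower at 2-fold, 2 each way with the random block), with Prtg, an early embryonic surface protein, falling by 2.33 ± 0.11. The mean over 4 neural markers was -1.06 to -0.66 per array in Puromycin and -1.07 to -0.49 in Control. Endoderm genes gave 11 higher and 4 lower of 21 (7 and 0 at 2-fold, also 7 and 0 with the random block). Col4a1 and Gata6, given above under other lists, rose most (3.03 and 2.44). Dab2, an endocytic adaptor (2.11 ± 0.10), and Sox17, also on the endothelial list (1.24 ± 0.14), rose too. Gata4 (-0.09, with its 2 probes at -0.52 and 0.34) and Foxa2 (0.09) were not called. Over Sox17, Gata4 and Foxa2 the mean was -0.80 to -0.70 per array in Puromycin and -1.28 to -0.99 in Control. Of 15 early mesoderm genes 4 were called higher and 6 lower (3 and 1 at 2-fold, 4 and 1 with the random block). The factors of epithelial-mesenchymal transition Snai1, Twist1 and Snai2 rose by 1.59 ± 0.21, 1.30 ± 0.13 and 1.28 ± 0.08, and Gsc, of the gastrula organizer, fell by 1.89 ± 0.14.

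Fibroblast and mural cell genes gave 5 higher and 3 lower of 15 (4 and 0 at 2-fold, 3 and 0 with the random block). Vim, given above with the intermediate filaments, is on this list too and rose most (3.43). Dcn, the proteoglycan decorin (2.80 ± 0.17), Mcam, of vessel walls (1.98 ± 0.08), and Col1a1 (1.41 ± 0.29, adjusted p = 0.245 with the random block) rose. The pericyte receptor Pdgfrb was called lower (-0.24 ± 0.06, adjusted p = 0.437 with the random block). Rgs5, another pericyte marker, was not called (0.30 ± 0.14, with its 2 probes at -0.24 and 0.85), but was at 0.42 without Control replicate 2 (adjusted p = 0.00356), and its higher probe alone was called (0.0271). Dcn had levels of -2.15 ± 0.92 in Puromycin and -4.96 ± 0.63 in Control, below the embryo pool in both. Blood genes gave 2 higher and 1 lower of 10 (0 each way at 2-fold and with the random block). Ptprc, the leukocyte marker CD45, was not called (0.30 ± 0.17). It was called higher in set 2 alone (0.72, adjusted p = 0.00914) and with array weights (0.50, adjusted p = 0.0314). Of 9 genes abundant in fetal liver and other embryonic tissue, 3 were called higher and 0 lower, none at 2-fold and none with the random block.

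**Figure D5:**
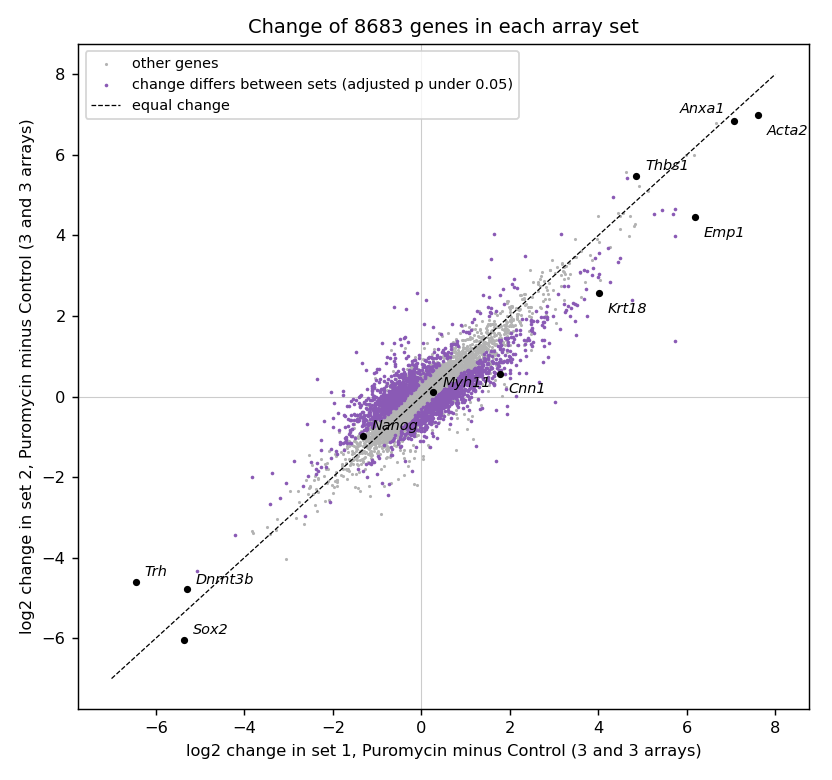
Change (log2, Puromycin minus Control) of 8683 genes within array set 1 (horizontal) and set 2 (vertical), each from 3 Puromycin and 3 Control arrays, with the dashed line at equal change. The changes correlate across genes at 0.853, and Emp1, Krt18 and Cnn1 lie below the line.

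The sets allowed each change to be read in separate arrays. Of 5755 called genes 5688 had the same direction in both sets and 3614 were called in each set alone, although the called genes had been chosen with both sets together. The change differed between the sets in 1867 genes (21.5%; interaction adjusted p under 0.05), 692 of them with opposite signs, and 1356 of the 1867 changed more in set 1. Over all genes the SD of changes was 0.880 in set 1 and 0.773 in set 2, with a slope of 0.748 of set 2 on set 1, across genes, which are not independent replicates. The values of Acta2 were 7.61 and 6.98, of Anxa1 7.07 and 6.85, of Thbs1 4.86 and 5.48 and of Sox2 -5.36 and -6.04.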

How the data were processed

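RNA of A404 cells (Cy5) was hybridized against RNA of an embryo pool (Cy3) on Agilent oligonucleotide arrays without a dye swap, read on a G2565AA scanner and quantified with Feature Extraction A.6.1.1, per the labels' protocols. The deposited values are 1 log10 ratio for each probe on each array, as they were read. Base, centring and direction are not stated. Base 10 was read from the range of the values, the direction from the dyes, and division by log10 of 2 gave log2 ratios. Intensities were not used here, so the signal over background behind a value is unknown, and the number of arrays limits the precision.

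Of 21446 rows, 1166 control-like rows without a gene (5.44%) were left out. Of 20280 probes 11100 had 1 symbol in the probe annotation given, 442 several and 8738 none, and the symbols can be old. Probes of 1 symbol were averaged per gene (1926 genes had more than 1 probe), which gave 17863 rows, 8683 of them genes, with no missing value and no further normalization. Separate cultures behind the replicates are not stated. A p-value therefore reflects the spread among these arrays, which may be technical.

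Puromycin minus Control was fitted on 12 arrays with limma 3.58.1 (R 4.3.3), with the array set as a block, empirical Bayes moderation and Benjamini-Hochberg adjustment over all 17863 rows. A gene is called at an adjusted p under 0.05. Since the sets were seen in the data as the first component of deviations from group means (54.3% of their variance), these p-values are optimistic. Same-numbered arrays of the groups deviated together (r of 0.298 to 0.490) through the shared sets, and after removal of set means r was -0.238 to -0.038. Other settings tried were no block, the replicate number as a block, group and set as a random block, each set alone, all 23 arrays, other scalings, single probes, array weights, other thresholds and leaving out each array. The fit was also run on simulated arrays with independent noise and an added set shift. That run cannot show what shared deviations within a group and set do to the p-values, and its outcome is not given here.

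The members and the 48 gene lists were chosen with earlier results of these data known, and 1295 of 1934 listed genes were measured. Lists carry no test of their own, and counts and medians describe them. Named were 8 fixed genes, the 12 largest rises and falls among called genes without overlap and with 1 direction in both sets (clone names passed over), up to 3 called members each way per list, and the defining markers of other cell types. Actg1, Cnn2, Eln, Lima1, Mrtfa, Myl6, Mylk, Rnd3, Srf and Vcl in the report, and the genes of the first paragraph of the other observations, were named after their values were seen. Promoter windows were those of RefSeq (GRCm38.p6), and 7022 of 8683 genes had one. Python 3.11.15, pandas 2.3.3 and matplotlib 3.10.9 were used for the tables and figures.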

Additional observations from a re-analysis of the deposited data

Results flagged for a closer look

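Among 410 groups of 6 arrays (Puromycin or Control, for each of 205 named genes, Flt1 not included) 23 had 1 array whose gap to its nearest neighbour was large against the range of the group. Chance gives about 1 in 20 for 6 values drawn alike. Each group here joins array sets that stand apart, so that rate need not hold and is no yardstick for the count. Of the 23 groups, 5 were Puromycin and 18 Control. The log2 ratios of the array and the span of the other 5 are given for each.

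Puromycin replicate 1 stood apart for Itga2 at -1.54 (others -1.3 to -1.2). Puromycin replicate 2 stood apart for Osmr at 1.79 (others 1.29 to 1.44). Puromycin replicate 4 stood apart for Adamts5 at 1.97 (others 1.71 to 1.8), Gpr37 at 0.0892 (others -0.511 to -0.295) and Orc5 at 1.33 (others 0.735 to 0.946).

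Control replicate 1 stood apart for Dhcr7 at 1.08 (others 0.51 to 0.713). Control replicate 2 stood apart for Hmga2 at 1.69 (others 1.98 to 2.14), Ier3 at -0.318 (others -1.05 to -0.877) and Myog at -1.29 (others -2.44 to -2.07). Control replicate 3 stood apart for Bhlhe40 at -1.71 (others -1.39 to -1.32), Krt8 at -2.44 (others -2.03 to -1.86) and Ltbp1 at -1.95 (others -1.67 to -1.55). It also stood apart for Nrp1 at -2.05 (others -1.72 to -1.52), Pmaip1 at 0.769 (others 0.132 to 0.317) and Tcf7l2 at 1.52 (others 0.373 to 0.773). It also stood apart for Thbs1 at -2.47 (others -2.09 to -1.91). Control replicate 4 stood apart for Ptgs2 at -0.829 (others 0.479 to 1.1). Control replicate 5 stood apart for Ccl2 at -1.32 (others -0.53 to -0.198), Orc5 at 5.44 (others 1.45 to 2.37) and Plin2 at 0.403 (others -0.917 to -0.507). It also stood apart for Prex2 at 5.89 (others 3.27 to 3.64), Prss23 at -1.8 (others -2.38 to -2.17) and Sox2 at 8.18 (others 4.12 to 5.22). The high Control array of Sox2, Prex2 and Orc5 was the same array, and without it these genes were still called lower in Puromycin.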

How the results depend on the processing

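Of 5755 called genes and 10668 called rows (4480 higher, 6188 lower), the counts stayed within 1.5 times under 26 of 28 other settings, from 4392 genes with no block to 6112 with single probes. The exceptions were the random block, with 1890 genes (1064 higher, 826 lower) and 2844 rows (1573, 1271), and the 2-fold threshold, with 1083 genes (708, 375) and 1893 rows (1227, 666), which is stricter by construction. With the replicate number as a block 5107 genes and 9366 rows were called, and 5095 of the genes were the same. Leaving out each array in turn gave 5431 to 5722 genes (2455 to 2644 higher, 2976 to 3206 lower) and 9933 to 10669 rows (4193 to 4505, 5740 to 6230). The 1867 genes that differed between sets became 1957, 1839 and 1546 under median centring, quantile and scale normalization. Of the genes named, Flt1 not included, 39 of 205 lost their call with the random block and 3 (Map2, adjusted p = 0.0826, Myh11, 0.103, and Pola2, 0.0550) with the replicate block. With no block 14 lost it. Of 96 list counts (higher or lower, 48 lists) 72 moved by over 1.5 times with the random block, 32 with no block, 12 and 10 in set 2 and set 1 alone, 6 with the replicate block, 5 under quantile normalization and 0 under median centring. The random block for the list counts was chosen after seeing the data, and leaving out the Control array farthest from its group was not run apart from leaving out each array. Directions turned for Map2 (-0.039) and Myog (-0.35) under quantile normalization and, with 1 of 2 probes, for Gata4 (0.34), Dcx (0.20) and Rgs5 (-0.24), and the cause was not tested. Read as log2, the deposited ratios would make Acta2 rise by 2.20. Signal over background was not used here, so what dim probes limit is unknown.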

Other observations

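The lists held 53 of the 76 genes that were at least 8-fold higher and 7 of the 13 at least 8-fold lower. The other 23 higher genes were on no list. Of these, Filip1l, a filamin-interacting protein, rose by 4.56 ± 0.14, Ahnak, a giant scaffold under the plasma membrane, by 4.52 ± 0.13, F3, the tissue factor that starts coagulation, by 3.79 ± 0.085 (2.94 and 4.64 on its 2 probes), and Dpysl3, a regulator of actin and microtubules in growing cells, by 3.60 ± 0.15. Tnfrsf12a, the receptor of the cytokine TWEAK, rose by 3.47 ± 0.067 and Tnfrsf11b, the decoy receptor osteoprotegerin, by 3.03 ± 0.37. Ankrd1, a muscle ankyrin repeat protein, rose by 3.06 ± 0.20 and Errfi1, a feedback inhibitor of the EGF receptor, by 3.14 ± 0.088. Slc38a4, an amino acid transporter that is imprinted in mouse, rose by 3.46 ± 0.057, Bhlhe40, a repressor of the clock, by 3.22 ± 0.075, and Rassf1 by 3.04 ± 0.096. The falls on no list were those of Trh, Gpr37, Prex2, Abcc4 and Car2, given above, and of Glrx, which encodes glutaredoxin (-3.04 ± 0.13).

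Of the 9180 rows without a gene of their own 1895 were called higher and 3018 lower, with 519 and 291 of them at least 2-fold. When the 1166 control-like rows were kept in the fit, 316 of them were called.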
